A study of Mus musculus with 16 samples.

Results

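The granule genes of immature neutrophils are described here across mouse blood libraries: Ngp, Ltf, Camp, Lcn2, Fcnb, Elane, Mpo, Ctsg, Prtn3 and Ms4a3. They were taken from the expression table by gene symbol, and all 10 were found among its 51179 gene identifiers. They had been selected on their TPM in an earlier comparison of these same libraries, in which granule genes lay higher in mice on a high-fat diet (HFD) with L-NAME than in chow-fed mice, so that comparison is given as a description and without a p-value. The RNA came from blood mononuclear cells (PBMCs) of mice of the C57BL/6N strain, used as a model of heart failure with preserved ejection fraction (HFpEF). Control mice received chow (5 libraries). The regimen group received the HFD together with L-NAME, an inhibitor of endothelial nitric oxide synthase, over 15 weeks (5 libraries). The remaining 6 libraries came from mice on that regimen that also received nitro-oleic acid (NO2-OA), an electrophilic nitrated fatty acid, during the final 4 weeks. All groups were of the same strain, and the labels give neither the age nor the sex of the mice and do not state that each library was a different mouse, so that p-values measure only the spread between libraries.

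Neutrophils make their granules in order while they mature in the bone marrow. Promyelocytes transcribe the genes of primary (azurophil) granules, which hold myeloperoxidase and the serine proteases, and myelocytes and metamyelocytes then transcribe those of secondary (specific) granules, which hold lactoferrin and cathelicidin. Transcription of these genes largely stops before release into blood, so a mature neutrophil carries the proteins with little of their mRNA, and the transcripts are used as marks of immature cells. A Ficoll gradient leaves most granulocytes in the pellet, so the mononuclear fraction holds a minority of them. In a bulk library, fewer cells of a type and less RNA per cell cannot be told apart.

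The values are TPM, a measure of transcript abundance in which reads per gene length are scaled to a library total of 1000000. Whole reads could be recovered from the steps of the values and summed to between 4940252 and 25477492 per library, with 1 read per kilobase worth 0.0467 to 0.181 TPM. Protein-coding genes took 39.1% to 56.4% of TPM in 13 libraries but fell to 22.1% in chow replicate 3, to 15.1% in replicate 5 of HFD+L-NAME and to 15.9% in replicate 2 of the NO2-OA group. The library numbers in the labels fall into 2 runs. Run 2, with the higher numbers, holds chow replicates 1 and 2, HFD+L-NAME replicates 1 and 5 and HFD+L-NAME+NO2-OA replicate 2, and run 1 holds the other 11 libraries. What separates the runs is not given in the sources used here. The first 4 of these run 2 libraries also carried genes of peritoneal macrophages, with Alox15 at 86.0 TPM or more, while the other 12 had 1.24 TPM or less. Results that rest on these libraries are given with and without them.

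The promoter windows of the secondary granule genes are shown because Ngp, Ltf and Camp moved together from library to library while Lcn2 followed them less closely, as described below. Each runs from 250 bases before to 50 bases after the RefSeq start of the gene (build GRCm38.p6), written along the gene's own strand. Capitals mark the letters TTGCNNAA, the core of sites bound by C/EBP factors, found on either strand. The windows lie at chr9:110419558-110419857 (Ngp, plus strand), chr9:111019042-111019341 (Ltf, plus strand), chr9:109849407-109849706 (Camp, minus strand) and chr2:32387690-32387989 (Lcn2, minus strand), and the Camp window holds no match.
Ngp: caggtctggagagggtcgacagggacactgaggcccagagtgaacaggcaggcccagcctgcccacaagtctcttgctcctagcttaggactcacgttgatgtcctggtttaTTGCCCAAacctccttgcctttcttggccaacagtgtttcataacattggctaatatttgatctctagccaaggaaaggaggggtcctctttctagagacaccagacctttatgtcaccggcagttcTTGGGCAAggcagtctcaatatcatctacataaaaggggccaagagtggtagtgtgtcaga
Ltf: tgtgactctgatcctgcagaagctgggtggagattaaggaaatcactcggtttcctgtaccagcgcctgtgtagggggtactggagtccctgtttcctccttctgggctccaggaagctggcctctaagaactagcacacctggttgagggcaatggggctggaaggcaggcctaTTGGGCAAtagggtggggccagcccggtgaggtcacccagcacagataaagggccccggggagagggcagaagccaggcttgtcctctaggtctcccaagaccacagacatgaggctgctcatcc
Camp: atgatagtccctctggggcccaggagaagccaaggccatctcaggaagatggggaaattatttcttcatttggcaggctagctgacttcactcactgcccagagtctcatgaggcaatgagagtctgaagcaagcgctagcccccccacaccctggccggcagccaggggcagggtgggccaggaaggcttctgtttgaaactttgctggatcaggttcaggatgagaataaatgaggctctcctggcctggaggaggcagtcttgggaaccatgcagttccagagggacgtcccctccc
Lcn2: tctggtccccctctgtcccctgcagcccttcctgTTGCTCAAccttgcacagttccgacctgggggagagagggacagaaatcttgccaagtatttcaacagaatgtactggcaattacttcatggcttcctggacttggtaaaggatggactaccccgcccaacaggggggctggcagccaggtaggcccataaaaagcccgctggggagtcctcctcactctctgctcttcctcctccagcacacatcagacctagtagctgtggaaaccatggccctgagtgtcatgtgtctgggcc

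The windows of 3 primary granule genes are shown for contrast, since each of them had its highest level in the same library, HFD+L-NAME replicate 1. Capitals here mark AGGAAGT, a core of sites bound by the ETS factor PU.1. The windows lie at chr10:79886062-79886361 (Elane, plus strand), chr11:87793534-87793833 (Mpo, plus strand) and chr10:79879417-79879716 (Prtn3, plus strand).
Elane: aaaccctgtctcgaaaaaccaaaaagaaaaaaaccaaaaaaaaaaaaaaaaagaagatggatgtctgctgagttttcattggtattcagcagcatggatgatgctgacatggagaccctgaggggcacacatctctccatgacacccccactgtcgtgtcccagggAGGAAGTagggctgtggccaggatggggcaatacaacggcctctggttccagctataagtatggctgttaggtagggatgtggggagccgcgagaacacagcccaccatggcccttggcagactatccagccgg
Mpo: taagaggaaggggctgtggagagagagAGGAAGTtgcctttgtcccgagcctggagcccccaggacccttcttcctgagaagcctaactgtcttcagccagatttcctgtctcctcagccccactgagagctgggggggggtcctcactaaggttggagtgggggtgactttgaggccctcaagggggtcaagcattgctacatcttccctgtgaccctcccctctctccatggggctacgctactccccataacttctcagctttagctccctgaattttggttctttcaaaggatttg
Prtn3: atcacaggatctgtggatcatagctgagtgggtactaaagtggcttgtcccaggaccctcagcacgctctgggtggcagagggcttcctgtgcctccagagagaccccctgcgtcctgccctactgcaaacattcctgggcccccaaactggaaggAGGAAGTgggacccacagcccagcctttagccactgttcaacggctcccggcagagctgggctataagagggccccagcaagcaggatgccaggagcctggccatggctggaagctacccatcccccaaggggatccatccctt

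All 10 genes matched a RefSeq window, and the motifs were chosen after the sequences had been seen. The shares over all windows are therefore given as a description, and nothing is read from the splits. The C/EBP letters TTGCNNAA occurred in 3 of 4 secondary granule genes and in 0 of 4 primary ones, against 10.8% of 27025 mouse promoter windows of the same length. In Ngp they occurred at -138 and -11 from the start, in Ltf at -75 and in Lcn2 at -216. Fcnb also held them at -235 and -123, and Ms4a3 at 41. The PU.1 letters AGGAAGT showed the opposite split, with 4 of 4 primary and 0 of 4 secondary genes, against 9.57% of all windows. They began at -84 in Elane, -94 in Prtn3, -223 in Mpo, -206 in Ctsg and -103 in Fcnb. Elane and Prtn3 lie near each other on chromosome 10, so their windows need not be independent. The RUNX letters TGTGGT were found in Ltf and Ctsg (16.9% of all windows) and the TATA letters TATAA in Fcnb, Elane, Ctsg and Prtn3 (25.5%). Both strands were searched for every motif, and no match in a window says only that these letters are not in it.

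**Figure D1:**
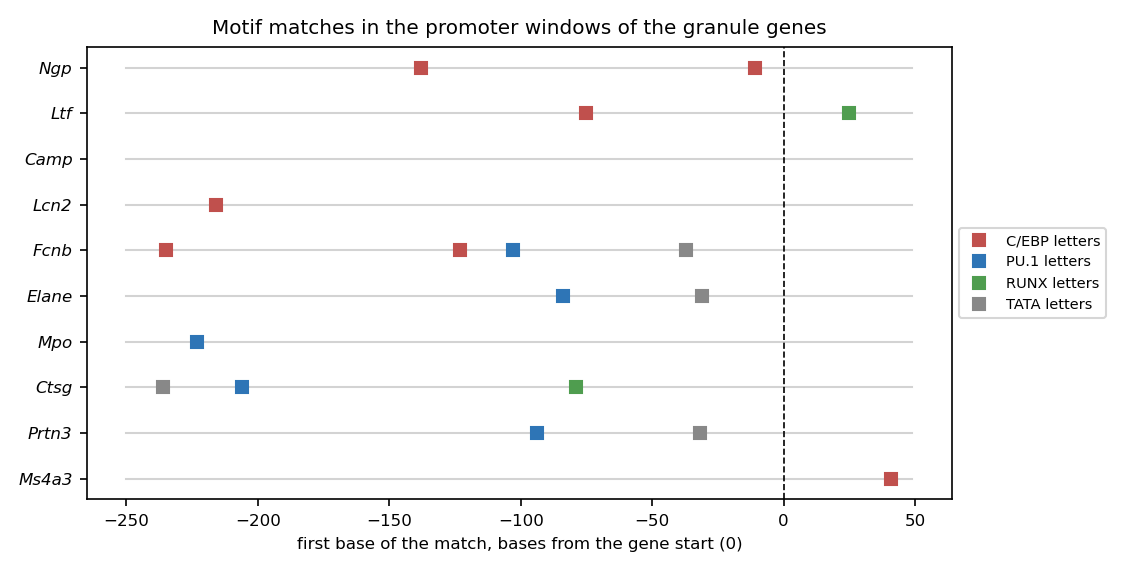
Positions of motif letters in the promoter windows of the 10 granule genes, as the first base of each match relative to the gene start (0). C/EBP letters (red) lie in Ngp, Ltf, Lcn2, Fcnb and Ms4a3, and PU.1 letters (blue) in Fcnb and the 4 primary granule genes.

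Ngp, Ltf and Camp each had a lower mean in chow than in the groups on the regimen, with or without NO2-OA. Ngp (ENSMUSG00000032484) encodes neutrophilic granule protein, a cystatin-related protein of secondary granules. In chow replicates 1 to 5 its level was 2.95, 0.110, 12.0, 15.5 and 24.9 TPM, the value of replicate 2 being 1 read. In HFD+L-NAME replicates 1 to 5 it was 142, 46.4, 22.6, 22.6 and 54.8 TPM, and in HFD+L-NAME+NO2-OA it ran from 5.64 TPM through a median of 50.8 to 109 TPM. All 5 HFD+L-NAME libraries and 5 of 6 NO2-OA libraries were above the chow median of 12.0 TPM, but the highest chow library exceeded the lowest of either group, so the groups overlapped. The means were 11.1 ± 9.99 TPM (SD, n = 5) in chow, 57.7 ± 49.4 TPM (n = 5) in HFD+L-NAME and 48.7 ± 36.0 TPM (n = 6) with NO2-OA.

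Ltf (ENSMUSG00000032496) encodes lactoferrin, the iron-binding protein of secondary granules. It was listed at 0.479, 0.179, 1.95, 3.68 and 5.68 TPM in the chow replicates and at 34.6, 12.6, 6.02, 5.64 and 11.3 TPM in the HFD+L-NAME replicates. With NO2-OA it ran from 1.17 through a median of 13.5 to 25.2 TPM. The lowest HFD+L-NAME value lay just under the highest chow value, and NO2-OA replicate 1 was the only library outside chow below the chow median of 1.95 TPM. Group means were 2.39 ± 2.30, 14.0 ± 11.9 and 12.3 ± 8.16 TPM (SD, n = 5, 5 and 6).

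Camp (ENSMUSG00000038357) encodes the cathelicidin precursor, from which an antimicrobial peptide is cut. Its level in chow was 1.04, 0, 2.69, 2.27 and 7.38 TPM, where the 0 of replicate 2 stands for 0 reads, a count that allows up to 3. In HFD+L-NAME it was 51.3, 11.0, 6.57, 4.57 and 12.2 TPM, and with NO2-OA it ran from 0.884 through 11.7 (median) to 22.8 TPM. The same libraries stood at the ends as for Ngp, with chow replicate 2 lowest and HFD+L-NAME replicate 1 highest. Means were 2.68 ± 2.83, 17.1 ± 19.3 and 11.8 ± 7.87 TPM (SD, n = 5, 5 and 6).

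The extremes of these 3 genes lay in run 2. Chow replicates 1 and 2 held the 2 lowest Ngp values of all 16 libraries, and HFD+L-NAME replicate 1 and NO2-OA replicate 2 held the 2 highest. As reads per 1000000 recovered reads, a measure without gene length, Ngp was 174 in NO2-OA replicate 2, and 116 and 99.4 in replicates 1 and 5 of HFD+L-NAME, which were the 3 libraries of run 2 outside chow, against at most 43.5 in every other library. Within run 1 the mean of Ngp was 17.5 ± 6.70 TPM in chow (SD, n = 3), 30.5 ± 13.8 TPM in HFD+L-NAME (n = 3) and 36.6 ± 22.8 TPM with NO2-OA (n = 5). Ltf in run 1 averaged 3.77 ± 1.86, 8.09 ± 3.90 and 9.73 ± 5.77 TPM in the same order. The order of the means was thus chow lowest in run 1 too, and the groups overlapped there. The part of the run in the wider differences was not tested.

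**Figure D2:**
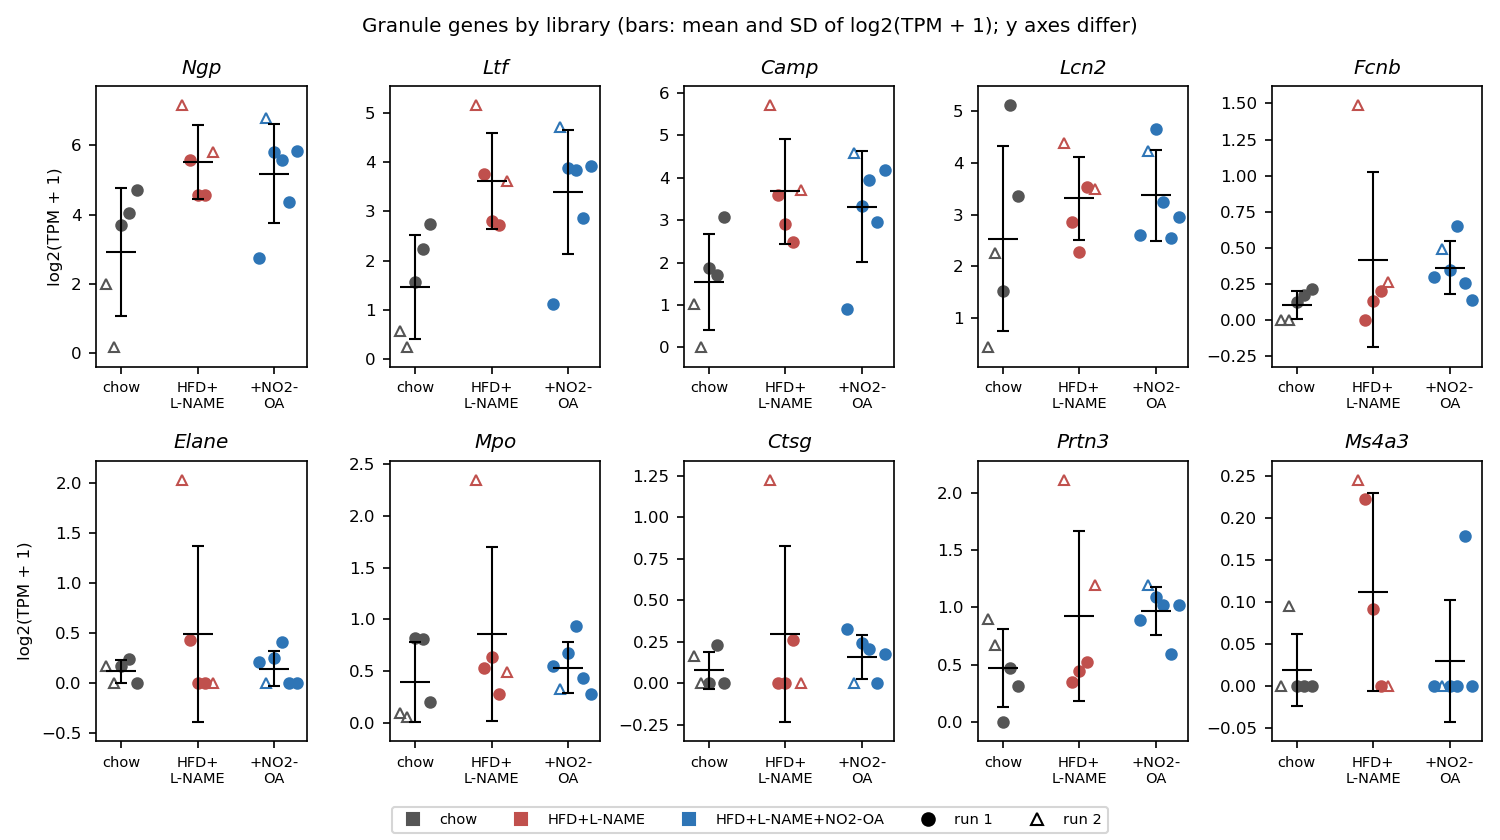
Level of each of the 10 granule genes in every library, as log2(TPM + 1), by group. Filled circles are run 1 and open triangles run 2, and bars give mean and SD; the run 2 chow libraries are the lowest for Ngp, Ltf and Camp within chow, and HFD+L-NAME replicate 1 is the highest library of all for Ngp, Ltf, Camp and 6 further genes, Lcn2 being the exception.

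Lcn2 (ENSMUSG00000026822) behaved differently. It encodes lipocalin 2, which binds bacterial siderophores and is stored in secondary granules, and it can also be induced in other cell types during inflammation. Its level was 0.341, 3.77, 1.85, 33.7 and 9.24 TPM in chow, so the highest of all 16 libraries was chow replicate 4. In HFD+L-NAME it was 19.9, 6.23, 3.83, 10.6 and 10.3 TPM, and with NO2-OA it ran from 4.80 through 7.61 (median) to 24.1 TPM. The means of 9.78 ± 13.8, 10.2 ± 6.15 and 11.2 ± 7.96 TPM (SD, n = 5, 5 and 6) lay closer together than the spread within any group. In run 1 the mean was highest in chow, at 14.9 ± 16.7 TPM (n = 3), against 6.89 ± 3.45 TPM in HFD+L-NAME (n = 3) and 9.84 ± 8.11 TPM with NO2-OA (n = 5).

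The make-up of the secondary granule transcripts therefore varied. Of the summed TPM of Ngp, Ltf, Camp and Lcn2, Ngp took 44.2% to 64.9% in 14 libraries, and Lcn2 took 7.09% to 39.8%. The 2 exceptions were both chow. In chow replicate 4 Lcn2 took 61.1% and Ngp 28.1%, and in chow replicate 2 Lcn2 took 92.9% and Ngp 2.71%. The sum itself was 4.81, 4.05, 18.5, 55.1 and 47.2 TPM in chow, and 248, 76.2, 39.0, 43.4 and 88.6 TPM in HFD+L-NAME. With NO2-OA it ran from 12.8 through 88.5 (median) to 175 TPM. The sums overlapped between the groups.

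**Figure D3:**
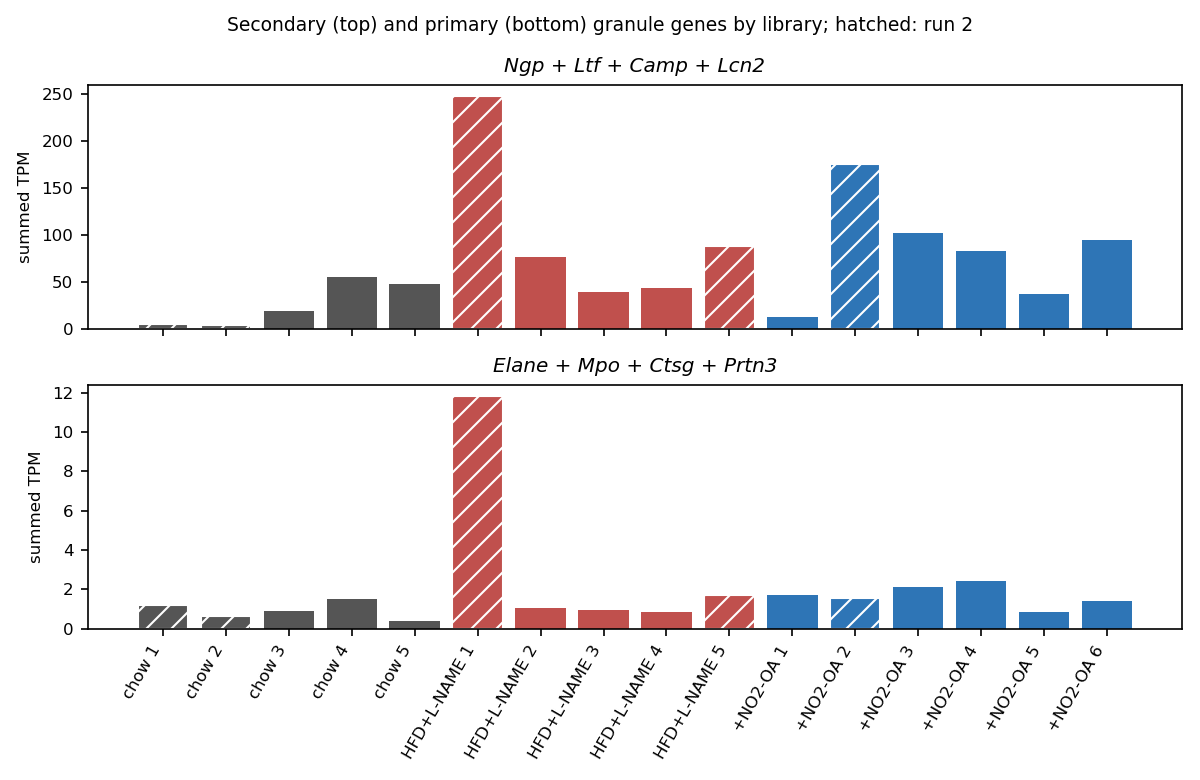
Summed TPM per library of the 4 secondary granule genes (top) and the 4 primary granule genes (bottom), coloured by group, with run 2 hatched. The secondary sum is lowest in chow replicates 1 and 2, and the primary sum of 11.8 TPM in HFD+L-NAME replicate 1 stands above the 15 other libraries, which reach at most 2.43 TPM.

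Across the 16 libraries Ngp, Ltf and Camp kept nearly the same order. On the log2(TPM + 1) scale Pearson's r was 0.974 for Ngp with Ltf (Spearman's rho 0.971), 0.959 for Ngp with Camp (rho 0.965) and 0.975 for Ltf with Camp (rho 0.965). Over the 11 libraries of run 1 alone these r were 0.983, 0.944 and 0.948. Without the 2 libraries farthest from the median of Ngp, its r with Ltf was 0.988 over 14 libraries. Genes of 1 library share its cell make-up, its depth and its TPM scale, and these relations are given as a description.

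Lcn2 stood apart from this trio and close to the calprotectin genes. Its r with Ngp was 0.616 over 16 libraries (rho 0.641) and 0.296 within run 1 (rho 0.336). Its r with S100a9, a calprotectin subunit of mature neutrophils and monocytes, was 0.929 (rho 0.906) over all libraries and 0.928 within run 1 (rho 0.918), and with S100a8 it was 0.905 and 0.944. Ngp had an r of 0.484 with S100a9, which was 0.249 in run 1. S100a8 and S100a9 summed to 16.6, 387, 149, 1863 and 839 TPM in chow, with the top value in chow replicate 4, where Lcn2 was also highest in TPM. Per 100 TPM of S100a8 plus S100a9, the 4 secondary genes together gave 29.0, 1.05, 12.4, 2.96 and 5.63 TPM in chow and 27.2, 33.8, 21.6, 5.84 and 8.92 TPM in HFD+L-NAME. With NO2-OA the figure ran from 7.07 through 14.4 (median) to 34.2 TPM. The ratio thus ran from 1.05 to 34.2 TPM over the libraries, and the 3 groups overlapped on it.

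**Figure D4:**
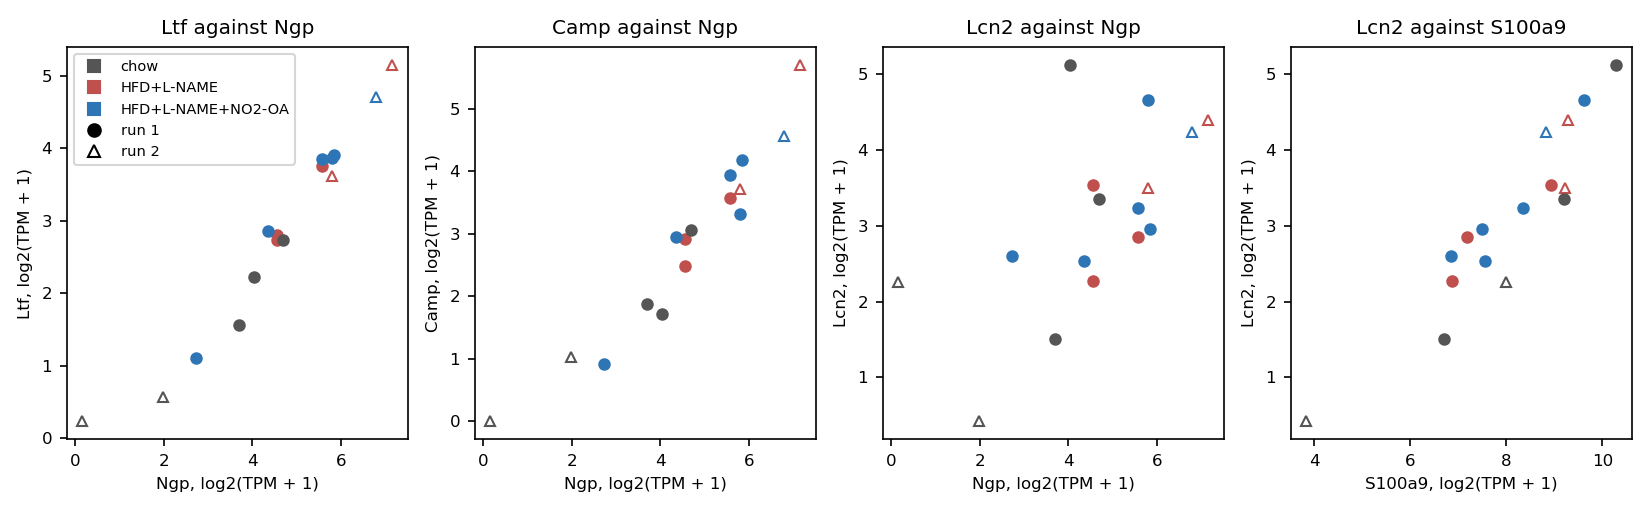
Ltf, Camp and Lcn2 against Ngp, and Lcn2 against S100a9, as log2(TPM + 1) with 1 point per library, coloured by group, with run 2 as open triangles. Ltf and Camp follow Ngp along a line, whereas Lcn2 scatters against Ngp and follows S100a9 (r 0.929).

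The primary granule genes together reached at most 2.43 TPM in 15 libraries and 11.8 TPM in 1. Elane (ENSMUSG00000020125), which encodes neutrophil elastase, had 24 reads (95% Poisson interval 15.4 to 35.7, which covers counting error only) and 3.08 TPM in HFD+L-NAME replicate 1. In the other HFD+L-NAME libraries it had 2, 0, 0 and 0 reads, in chow 1, 0, 1, 1 and 0, and with NO2-OA 0 to 3. Mpo (ENSMUSG00000009350), myeloperoxidase, had 125 reads (104 to 149) and 4.09 TPM in the same library. It was listed at 0.444, 0.558, 0.213 and 0.402 TPM in HFD+L-NAME replicates 2 to 5, at 0.0644, 0.0360, 0.767, 0.751 and 0.146 TPM in chow, and at 0.214 to 0.916 TPM with NO2-OA. Apart from that library, the ranges of the 3 groups overlapped. Ctsg (ENSMUSG00000040314), which encodes cathepsin G, had 11 reads (5.49 to 19.7) in HFD+L-NAME replicate 1 and at most 5 elsewhere, or 1.33 TPM in the former and 0.254 TPM or less in the latter.

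The same library held the highest value of the remaining protease. Prtn3 (ENSMUSG00000057729), which encodes proteinase 3, the classical target of cytoplasmic autoantibodies in vasculitis, was the only primary granule gene that passed the filter for testing. Its level was 0.866, 0.596, 0, 0.389 and 0.242 TPM in chow and 3.32, 0.275, 0.361, 0.440 and 1.29 TPM in HFD+L-NAME, and ran from 0.505 through 1.03 (median) to 1.29 TPM with NO2-OA. All 6 NO2-OA libraries lay above the HFD+L-NAME median and above the chow median, while the ranges overlapped through run 2. Within run 1 the 5 NO2-OA libraries averaged 0.909 ± 0.246 TPM (SD), all above the 3 HFD+L-NAME libraries (0.359 ± 0.0823 TPM) and the 3 chow libraries (0.210 ± 0.196 TPM). Over all tested genes, 0.177% lay higher without overlap in the run 1 comparison of NO2-OA with HFD+L-NAME and 0.348% in that with chow. Prtn3 met the filter with 6 libraries of at least 1 TPM, of which 4 were NO2-OA libraries and 2 were the HFD+L-NAME libraries of run 2, so it was tested only through the groups where it is high, and nothing is read from that background. In the fit on run 1 alone the log2 differences of Prtn3 were 0.48 ± 0.28 (SE) and 0.66 ± 0.28, with an adjusted p of 1.00 by limma in both. The levels rest on 3 to 30 reads where the gene was detected in run 1.

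Fcnb and Ms4a3 were the least abundant of the set beside Ctsg and Elane. Fcnb (ENSMUSG00000026835) encodes ficolin B, a lectin that starts the complement lectin pathway and is made by maturing myeloid cells in mice. It had 20 reads and 1.80 TPM in HFD+L-NAME replicate 1, at most 6 reads in any other library, and was listed at 0 in chow replicates 1 and 2 and HFD+L-NAME replicate 2. With NO2-OA it was above 0 in 6 of 6 libraries, from 0.0980 to 0.573 TPM, against 0 to 0.161 TPM in chow. Those ranges overlapped, and each NO2-OA library had 1 to 6 reads. Ms4a3 (ENSMUSG00000024681), a membrane-spanning gene of granulocyte and monocyte progenitors, was above 0 in 5 of 16 libraries with at most 3 reads and 0.185 TPM. Its differences between groups were not detectable at this depth.

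In TPM, HFD+L-NAME replicate 1 was thus the library in which 9 of the 10 granule genes had their highest value, Lcn2 being the exception. For Ms4a3 that value was 3 reads. By the measure without gene length used above, NO2-OA replicate 2 was higher for Ngp (174 against 116) and Ltf (124 against 86.7). Camp, Fcnb, Elane, Mpo, Ctsg, Prtn3 and Ms4a3 stayed highest in HFD+L-NAME replicate 1. The primary granule sum of 11.8 TPM in HFD+L-NAME replicate 1 came from 209 reads, against 9 to 72 reads in every other library. This library is also 1 of the 4 libraries with peritoneal macrophage genes (Alox15 173 TPM). The other 3 of these had 91.4 TPM (chow replicate 1), 86.0 TPM (chow replicate 2) and 175 TPM (HFD+L-NAME replicate 5) of Alox15 with primary sums of 1.18, 0.632 and 1.69 TPM. Of the progenitor gene Cd34, HFD+L-NAME replicate 1 had 0.436 TPM, within the range of the other libraries (0.0168 to 0.816 TPM). Of Kit it had 0.380 TPM (others 0.237 to 0.843 TPM). The Cd34 value lay above the median of all 16 libraries (0.0870 TPM) and the Kit value below it (0.455 TPM). Of 11 proliferation genes Ccnb2 alone was highest in this library, at 5.51 TPM against a median of 1.96 TPM. The part of progenitors or dividing cells was not tested.

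Group comparisons were made with limma on log2(TPM + 1) over 16365 genes with at least 1 TPM in at least 5 libraries. Ngp, Ltf, Camp, Lcn2 and Prtn3 passed this filter and the other 5 members did not. A gene that is high in 1 group can pass such a filter through that group alone, so values over the 5 are not values over all members. For HFD+L-NAME against chow, which asks what the regimen changes in circulating cells, the log2 differences were 2.62 ± 0.73 (SE) for Ngp, 2.15 ± 0.57 for Ltf, 2.14 ± 0.62 for Camp, 0.78 ± 0.62 for Lcn2 and 0.45 ± 0.30 for Prtn3. In this comparison 0 of the 5 were called at an adjusted p under 0.05, as were 0.00611% of all tested genes, and nothing is read from this count because the set was proposed from this contrast. The median of the 5 was 2.14, beside a median of -0.29 over all tested genes. In a fit without the filter the low members differed by 0.46 ± 0.32 (Mpo), 0.37 ± 0.29 (Elane), 0.31 ± 0.21 (Fcnb), 0.22 ± 0.18 (Ctsg) and 0.09 ± 0.05 (Ms4a3), and each of these HFD+L-NAME means held the high value of replicate 1.

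These differences were smaller in run 1 alone. There the log2 differences were 0.75 ± 0.61 for Ngp, 0.93 ± 0.57 for Ltf, 0.77 ± 0.59 for Camp, -0.44 ± 0.63 for Lcn2 and 0.18 ± 0.31 for Prtn3. The background differed too: over all tested genes the run 1 median was 0.13, with 72.9% of genes above 0. Leaving out the 4 libraries with peritoneal macrophage genes keeps the same chow and HFD+L-NAME libraries and so the same differences. With the TPM rescaled by median-of-ratios size factors, the median of all tested genes moved from -0.29 to 0.02 and the share of genes above 0 from 17.9% to 53.6%. Ngp, Ltf and Camp then differed by 2.87, 2.36 and 2.36.

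The next comparison asks how treated mice differ from those on the regimen alone, and it uses the same HFD+L-NAME libraries. The members were chosen for lying high in these libraries. Differences and p-values here are therefore not independent of that choice, and nothing is read from the p-values. With NO2-OA added to the regimen, the log2 differences were -0.35 ± 0.70 (SE) for Ngp, -0.23 ± 0.55 for Ltf, -0.37 ± 0.60 for Camp, 0.06 ± 0.59 for Lcn2 and 0.04 ± 0.29 for Prtn3 (limma, each adjusted p = 0.9999). Of the 5 members 0 were called, against 0.00611% of all tested genes, and 0 had an unadjusted p under 0.05 by limma or by limma-voom, whose lowest adjusted p was 0.998. The background at an unadjusted p under 0.05 was 0.483% of genes higher and 0.464% lower by limma. By limma-voom 233 of the 16365 genes were higher and 59 lower. The median of the 5 was -0.23, with 0.08 over all tested genes. The sign of the trio turned without HFD+L-NAME replicate 1, when Ngp differed by 0.06, Ltf by 0.16 and Camp by 0.14, and likewise without NO2-OA replicate 1, when they differed by 0.14, 0.23 and 0.11. Under median-of-ratios rescaling, which moved the share of all genes above 0 from 64.7% to 43.9%, Lcn2 and Prtn3 turned to -0.0872 and -0.0783.

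HFD+L-NAME+NO2-OA was also set against chow, which shares its chow libraries with the first comparison. The log2 differences were 2.27 ± 0.70 (SE) for Ngp, 1.92 ± 0.55 for Ltf, 1.78 ± 0.60 for Camp, 0.84 ± 0.59 for Lcn2 and 0.50 ± 0.29 for Prtn3, each with an adjusted p of 0.977 by limma. Here too 0 of 5 members were called, and 0% of all tested genes were. Because the members were chosen for lying low in these same chow libraries, p-values against chow are not independent of that choice, and nothing is read from them. For completeness, Ngp, Ltf and Camp were higher at an unadjusted p under 0.05 by limma (0.428% of all genes were higher and 2.37% lower). By limma-voom Ngp, Ltf and Prtn3 were, with a lowest adjusted p of 0.994. At an unadjusted p under 0.05 by limma-voom, 150 of the 16365 genes were higher and 396 lower. The median of the 5 was 1.78, beside -0.20 over all tested genes, of which 17.3% lay above 0 as deposited and 48.5% after median-of-ratios rescaling. In run 1 alone the differences were 0.71 ± 0.55 for Ngp, 0.95 ± 0.51 for Ltf, 0.84 ± 0.53 for Camp and -0.13 ± 0.57 for Lcn2. Over all tested genes the run 1 median was 0.12, with 70.5% of genes above 0.

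**Figure D5:**
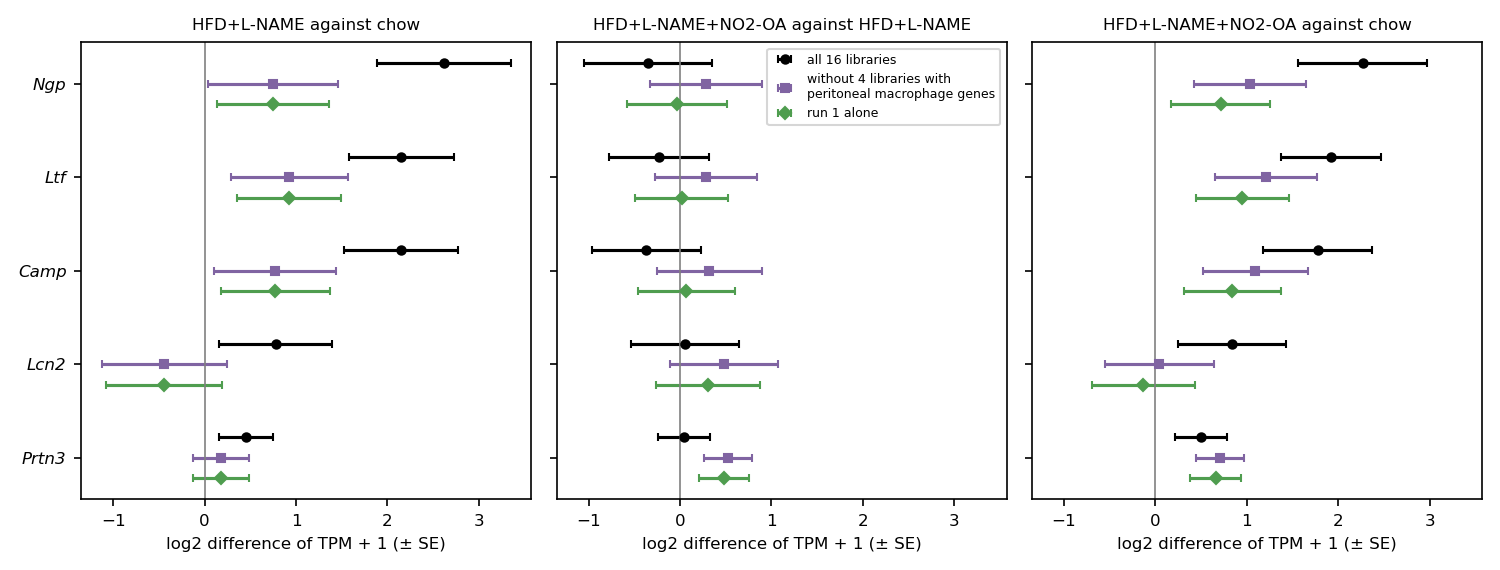
Log2 differences of TPM + 1 with their standard errors for the 5 tested granule genes in the 3 comparisons, from all 16 libraries (black), without the 4 libraries with peritoneal macrophage genes (purple) and in run 1 alone (green). Ngp, Ltf and Camp lie above 0 against chow in each set, at 1.78 to 2.62 with all libraries and 0.71 to 1.21 in the smaller sets, and near 0 between the regimen with and without NO2-OA. In run 1 alone 72.9% of all tested genes lay above 0 for HFD+L-NAME against chow, and 70.5% for NO2-OA against chow.

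Other granule and immature neutrophil genes were set beside the members. Over all 16365 tested genes, 17.9% lay above 0 in HFD+L-NAME against chow. The share was 64.7% for NO2-OA against HFD+L-NAME and 17.3% for NO2-OA against chow. In the same order 0.00611%, 0.00611% and 0% of all tested genes were called, so nothing is read from 0 called in a list. Of a list of 22, 16 were tested and 0 called in any comparison, with 12 of 16 above 0 in HFD+L-NAME against chow (median 0.22) and 9 and 10 above 0 for NO2-OA against HFD+L-NAME (median 0.07) and chow (median 0.10). Its most abundant genes, Lyz2 (lysozyme) and Srgn (the granule proteoglycan serglycin), differed by 0.57 ± 0.50 and 0.31 ± 0.55 in HFD+L-NAME against chow. Of 14 mature neutrophil genes all 14 were tested and 0 called, with 12, 2 and 8 above 0 and medians of 0.30, -0.23 and 0.03. S100a9 differed by 0.69 ± 0.83 and S100a8 by 1.06 ± 0.86 in HFD+L-NAME against chow. Of 10 transcription factors of granulopoiesis 8 were tested and 0 called, with 2, 5 and 2 above 0, and Cebpb and Spi1 (PU.1), the most abundant, differed by 0.10 ± 0.42 and -0.13 ± 0.41 in the first comparison.

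Lists of dividing cells and progenitors had 0 genes called in all 3 comparisons, and nothing is read from this. The shares of all tested genes called and above 0 are those of the paragraph before. Of 11 proliferation genes 6 were tested, with 5, 1 and 3 above 0 and medians of 0.20, -0.11 and 0.00. The most abundant, Ube2c and Stmn1, differed by 0.76 ± 0.67 and 0.22 ± 0.35 in HFD+L-NAME against chow. Of 9 progenitor genes 5 were tested, with 3, 2 and 0 above 0 and medians of 0.16, -0.21 and -0.21. Genes of other granulocytes were scarce: the 5 basophil and mast cell genes, led by Mcpt8 and Ms4a2, summed to at most 6.27 TPM and the 4 eosinophil genes, led by Siglecf and Ccr3, to at most 1.61 TPM, and the eosinophil granule genes Prg2 and Epx were each above 0 in 1 library. Peritoneal macrophage genes, led by Prg4 and Alox15, summed to 4.91 to 336 TPM in chow, 6.91 to 656 TPM in HFD+L-NAME and 8.73 to 22.4 TPM with NO2-OA. Their part in the granule gene differences was not tested beyond the values without the 4 libraries. Monocyte genes, led by Nr4a1 and Fn1, summed to 349 to 954, 532 to 773 and 257 to 608 TPM in the 3 groups. Fn1 was 275 and 235 TPM in chow replicates 1 and 2 and 390 and 378 TPM in HFD+L-NAME replicates 1 and 5. These are the libraries with peritoneal macrophage genes, and elsewhere Fn1 reached at most 94.0 TPM. The part of macrophage RNA in the monocyte sums was not tested. T cell genes (Trac, Cd3e) summed to 74.2 to 216, 31.0 to 142 and 73.6 to 151 TPM, and NK cell genes (Klrd1, Ncr1) to 15.9 to 67.1, 6.71 to 48.9 and 15.8 to 33.0 TPM. The platelet genes Ppbp and Pf4 summed to 1377 to 14820, 1224 to 24590 and 256 to 15790 TPM, and haemoglobin genes took 0.141% to 30.7% of TPM over all libraries. These ranges overlapped between the groups. In HFD+L-NAME against chow, where Ngp, Ltf and Camp lay higher, 0 of 3 T cell genes and 0 of 3 NK cell genes lay above 0, with median log2 differences of -1.19 and -1.09 and 0 called by limma. The median sum was 196 TPM in chow and 53.9 TPM in HFD+L-NAME for the T cell genes, and 44.4 and 13.7 TPM for the NK cell genes. Over all tested genes 17.9% lay above 0 in this comparison. In the libraries with peritoneal macrophage genes, Trac was 140 and 128 TPM in chow and 31.4 and 18.1 TPM in HFD+L-NAME. In the others it was 68.5, 117 and 45.5 TPM in chow and 61, 29.65 and 93.0 TPM in HFD+L-NAME. For Klrd1 the former held 34.45 and 40.2 against 8.16 and 5.68 TPM. The latter held 12.3, 45.8 and 17.4 against 31.45, 7.97 and 13.9 TPM. The part of these cell types in the granule gene values was not tested.

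Outside the set, few genes followed Ngp over the 16 libraries. Among 9548 other genes with a mean of at least 2 TPM, the most alike in rank were Ly6g, a surface protein of mouse neutrophils (rho 0.633, r 0.645), Chi3l1 (rho 0.506, r 0.388), and Chac1, Wfdc21 and S100a9 (each rho 0.494). Within run 1 the rho of these 5 lay between 0.091 and 0.382. By the same measure Ltf and Camp had a rho of 0.971 and 0.965 with Ngp, Lcn2 0.641, Fcnb 0.619, Prtn3 0.568 and Mpo 0.318, with Elane, Ctsg and Ms4a3 at 0.151, 0.137 and 0.046. The members were selected on a group difference in these same libraries, and the other genes were not. The rho of members and of other genes are therefore not on an equal footing, and nothing is read from setting them side by side.

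Among less abundant genes of the lists, Cebpe kept closest to Ngp. It encodes C/EBP epsilon, a factor needed for secondary granule gene transcription, and had a rho of 0.865 with Ngp over 16 libraries (r 0.778) and 0.791 over the 11 of run 1, on 1 to 12 reads per library. Its level ran from 0.0966 to 0.525 TPM in chow, from 0.478 to 1.18 TPM in HFD+L-NAME and from 0.105 to 0.987 TPM with NO2-OA. It was too low to be tested. Cebpe was 1 of 10 granulopoiesis factors with a rho above 0.5, and the other 9 ran from -0.276 (Irf8) to 0.447 (Klf5). Cebpa, whose product acts earlier in granulopoiesis, had a rho of -0.212 on 85 to 590 reads. Of the 22 other granule genes, 5 had a rho above 0.5 with Ngp: Itgb2l (0.806), Abca13 (0.741), Ceacam10 (0.690), Olfm4 (0.588), which encodes the specific granule protein olfactomedin 4, and Orm1 (0.550). These 5 genes rest on 0 to 119 reads per library, and their rho in run 1 lay between -0.073 and 0.645. Of the 14 mature neutrophil genes 2 had a rho above 0.5, Ly6g and the chemokine receptor gene Cxcr1 (0.574, and 0.545 in run 1). None of the 11 proliferation genes (-0.238 to 0.218) or the 9 progenitor genes (-0.312 to 0.168) reached 0.5.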

How the data were processed

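Total RNA of frozen and thawed PBMCs was sequenced from ribosomal-depleted, random-primed libraries, per the labels' protocols. The authors deposited 1 table of TPM for 51179 gene identifiers in 16 libraries. Per the submitters' processing notes the tools were bcl2fastq, Trim Galore, HISAT2 and featureCounts, with builds mm39 and hg38. Versions, annotation release and the use of strand in counting are not given in the sources used here, so reads of overlapping antisense genes cannot be told apart. Symbols came from the table, and GENCODE M21 matched 48486 identifiers for gene types.

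Each TPM value of the 32629 genes above 0 was a whole multiple of 1 step per gene and library (100% of genes within a tolerance of 0.001), from which reads were recovered. A gene seen in few libraries may have a divisor of its true reads. Of genes above 0 in every library, 94.4% had an implied length within 1.5-fold of the annotated one, and for the members the ratio was 1.00 to 1.19.

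limma 3.58.1 (R 4.3.3) with a variance trend was fitted to log2(TPM + 1) of genes with at least 1 TPM in at least 5 libraries, with 1 coefficient per group over all 16 libraries and two-sided Benjamini-Hochberg adjusted p under 0.05 as the call. A fold on this scale understates the change of low genes. Counting intervals are exact Poisson at 95%. Promoter windows are from RefSeq (GRCm38.p6), which is not the authors' build, and were matched by symbol. Python 3.11.15, pandas 2.3.3 and scipy 1.17.1 were used.

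All members are named, as are the 2 most abundant genes of each list (those of the B cell and progenitor lists are not reported here), those whose absence is stated, and the 5 genes most alike to Ngp by Spearman's rho. Genes of the lists with a rho above 0.5, and Cebpa, Irf8, Klf5, Cd34, Kit and Ccnb2, were chosen after their values were seen. The members and lists were chosen with earlier results of these data known. Alternatives were another pseudocount, no filter, 2 rescalings, limma-voom on recovered reads, a replicate block, run 1 alone, run as a covariate, and leaving out libraries.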

Additional observations from a re-analysis of the deposited data

Results flagged for a closer look

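In groups of 4 to 10 libraries, a library was listed here when its gap to the nearest other, over the range of the group on the log2(TPM + 1) scale, passed Dixon's 95% limit. Chance gives about 1 in 20 groups for independent, normally distributed values. Genes of 1 library are not independent, and a group with a single library above 0 passes whatever its value. Of 30 groups (10 genes in 3 groups) 6 had a listed library, and nothing is read from this count.

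Of these, 4 were HFD+L-NAME replicate 1: Mpo at 4.09 TPM (125 reads) against at most 0.558 TPM in the other HFD+L-NAME libraries, Elane at 3.08 TPM (24 reads) against at most 0.348 TPM, Fcnb at 1.80 TPM (20 reads) against at most 0.201 TPM, and Ctsg at 1.33 TPM (11 reads) against at most 0.197 TPM. This is a library of run 2 with peritoneal macrophage genes, and their part was not tested; chow replicates 1 and 2 and HFD+L-NAME replicate 5 held such genes too, with primary granule sums of 1.18, 0.632 and 1.69 TPM against 11.8 TPM.

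The other 2 rest on 1 and 2 reads. Ms4a3 was at 0.0680 TPM (1 read) in chow replicate 2 and at 0.132 TPM (2 reads) in replicate 5 of the NO2-OA group, with 0 in all other libraries of their groups.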

How the results depend on the processing

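Under all 26 alternatives 0 members were called in each comparison. Few genes of any kind were called under them. The most was 4 of 16365, for NO2-OA against HFD+L-NAME without NO2-OA replicate 2, and with no filter 1 of 32629. Nothing is therefore read from the members called. The median log2 difference of tested members in HFD+L-NAME against chow was 2.14; it was 0.46 with no filter (all 10 members), 3.20 with limma-voom, 0.75 in run 1 alone and 0.75 without the 4 peritoneal macrophage libraries, and 1.64 to 2.47 with 1 library left out. For HFD+L-NAME+NO2-OA against chow it was 1.78, with 0.38 under no filter, 0.71 in run 1 alone and 1.39 to 2.26 with 1 library left out. For NO2-OA added to the regimen it was -0.23, within a spread between replicates of 0.95 under every alternative, and -0.49 to 0.16 with 1 library left out.

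Direction turned in this last comparison and for Lcn2. In run 1 alone Ltf was at 0.0224 and Camp at 0.0709. Without the 4 peritoneal macrophage libraries Ngp, Ltf and Camp were at 0.29, 0.29 and 0.32. That set keeps NO2-OA replicate 2 (Ngp 109 TPM), so run 2 is present there in the NO2-OA group alone. Median-of-ratios rescaling put Lcn2 at -0.0872 and Prtn3 at -0.0783, and leaving out the libraries under 25% protein-coding TPM put Lcn2 at -0.0656. With 1 library left out the ranges were -0.67 to 0.14 for Ngp, -0.49 to 0.23 for Ltf, -0.67 to 0.14 for Camp, -0.20 to 0.33 for Lcn2 and -0.10 to 0.34 for Prtn3. Against chow, Lcn2 with NO2-OA turned from 0.84 to -0.13 in run 1 alone, and Lcn2 in HFD+L-NAME turned from 0.78 to -0.44 in run 1 alone and without the 4 peritoneal macrophage libraries. The smaller sets hold fewer samples, and otherwise the cause was not tested.

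With the replicate block the medians were 2.14, -0.33 and 1.60 and 0 members were called. The numbers are not shown to pair the libraries: deviations of same-numbered libraries correlated above 0.1 in 3 of 15 pairs (-0.51 to 0.51). Depth limits Elane, Ctsg, Fcnb and Ms4a3, which had 0 to 6 reads outside HFD+L-NAME replicate 1.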
